A study of Homo sapiens with 8 samples.

Results

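The genes described here carry inorganic sulfate into the cell, activate it, place it on steroids and small phenols, and take it off steroids again. They are the 8 rows of the deposited table, of 57773 genes in all, named SLC26A2, PAPSS1, PAPSS2, BPNT1, SULT1A1, SULT1E1, SULT2B1 and STS. They were named for their roles in this pathway, and 7 of them reached the level needed for testing (a mean of at least 0.5 RPKM over the libraries, RPKM being reads scaled by exon length and library size). SULT1E1 did not.

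The cells were ZR-75-1, an established human breast cancer line that responds to estrogen. All of them spent 72 h in phenol red-free medium with charcoal-stripped serum, which removes steroids, and then 4 h with hormone. In the first group, E2, the hormone was 10 nM estradiol. In the second, E2+DHT, it was 10 nM estradiol together with 10 nM of the androgen dihydrotestosterone (DHT). There were 4 libraries in each group and no group without hormone, so every comparison asks what DHT adds to estradiol. The libraries were made from total RNA of whole cultures, so fewer expressing cells and less RNA per cell cannot be told apart.

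The record titles and the library names disagree on the treatment in 4 of the 8 records, and the groups used here follow the library names, which head the columns of values. FKBP5, C1orf116 and UGDH, which androgens are known to induce, bear on this choice. FKBP5 lay between 0.652 and 0.841 RPKM in the libraries named E2 and between 1.91 and 2.55 RPKM in those named E2+DHT, and the other two genes did not overlap either. They were chosen with earlier results of these data known, so their separation is no independent check of the grouping. Under it FKBP5, C1orf116 and UGDH ranked 3, 2 and 1 by limma p among all tested genes. By record, the E2 libraries came from passages 8 and 10 and the E2+DHT libraries from passages 9 and 11, and read that way passage and treatment cannot be told apart. In the same records passages 8 to 11 run with the titles' replicate numbers 1 to 4 in both treatments, and if a number marks a passage, each number is shared by both treatments. The numbers in the library names, by which replicates are called here, instead join passages 8 and 9 or 10 and 11 by record. The labels do not settle which reading holds. Luminal breast markers were high in every library (KRT8 361.8 to 550.0 RPKM), and of 11 markers of basal, stromal, immune, endothelial and prostate cells only COL1A1 reached 0.5 RPKM on average. The summed level of those 11 markers was 0.9504 to 1.10 RPKM in E2 and 1.07 to 1.40 RPKM in E2+DHT. Library size, recovered from the steps in which the RPKM values move, was 19599217 to 34616639 reads.

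Sulfate cannot cross the cell membrane unaided, and SLC26A2 is an anion exchanger that brings it in. PAPSS1 and PAPSS2 join sulfate to ATP to make PAPS, the activated donor from which all sulfotransferases work, and BPNT1 breaks down PAP, the product that is left over. Sulfated estrogens and androgens do not activate their receptors. In breast tissue SULT1E1 is known for inactivating estradiol in this way, and STS, steroid sulfatase, for releasing active steroids from circulating sulfates.

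SLC26A2 is the gene in which the treatments stood furthest apart, so the stretch before its transcription start is shown here, with that of SULT1E1, the gene without signal, for comparison. Both are the 250 bases upstream of the RefSeq start on GRCh38.p14, read along the gene's strand. Capitals mark GGTCA or its reverse complement, the core of the estrogen receptor's element, and would mark AGAACA or its reverse complement, the core of the androgen receptor's element, where present. SLC26A2 lies at chr5:149960508-149960757 on the plus strand and SULT1E1 at chr4:69860146-69860395 on the minus strand.
SLC26A2: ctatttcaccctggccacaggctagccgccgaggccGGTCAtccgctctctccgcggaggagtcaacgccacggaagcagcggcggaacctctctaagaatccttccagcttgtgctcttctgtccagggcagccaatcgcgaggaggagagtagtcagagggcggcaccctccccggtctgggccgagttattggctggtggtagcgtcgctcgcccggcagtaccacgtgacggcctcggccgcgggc
SULT1E1: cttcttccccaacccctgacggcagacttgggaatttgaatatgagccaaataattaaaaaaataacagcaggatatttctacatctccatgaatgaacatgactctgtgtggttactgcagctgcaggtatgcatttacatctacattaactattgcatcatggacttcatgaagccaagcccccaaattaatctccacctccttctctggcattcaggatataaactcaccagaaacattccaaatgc

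The SLC26A2 stretch had 66.0% G and C and 24 CpG dinucleotides, and the SULT1E1 stretch had 40.8% and 1, against medians of 58.0% and 11 over the 35116 promoters of the table. SLC26A2 held 1 GGTCA, which starts 214 bases before the transcription start, and no AGAACA. SULT1E1 held neither. Of all promoters of the same length, 32.6% held GGTCA and 12.4% held AGAACA on either strand, so these matches are common. A pair of such cores facing each other with 3 bases between them, the full form of either element, was in 0 of the 9 promoters listed for the members and in 0.00285% (AGAACA) and 0.0399% (GGTCA) of all. The 9 belong to 5 members: PAPSS1, SLC26A2, SULT1E1 and SULT2B1 with 1 each, and STS with the rest.

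SLC26A2 had 1.37, 1.65, 1.57 and 1.59 RPKM in E2 replicates 1 to 4. In E2+DHT replicates 1 to 4 it had 2.23, 2.50, 2.06 and 2.11 RPKM. Every library with DHT was above every library without it, and the lowest of the former exceeded the highest of the latter. The mean was 1.54 ± 0.124 RPKM in E2 and 2.22 ± 0.196 RPKM in E2+DHT (SD, n = 4 per group), a ratio of means of 1.44. On the log2(RPKM + 0.5) scale used for testing, which understates changes at low levels, E2+DHT exceeded E2 by 0.41 (log2 fold change, standard error 0.0777, 95% confidence interval 0.24 to 0.59). Its unadjusted limma p of 0.000323 ranked 44 among 11375 tested genes, and the limma adjusted p of 0.0829 missed the threshold of 0.05. With the replicate number of the library names as a block, the log2 fold change was again 0.41 and passed (limma adjusted p = 0.0385). By record no such block shares a passage, since each joins passages 8 and 9 or 10 and 11. The blocked fit applies only if libraries with the same number in their names share something, such as a passage, which the labels do not settle. Taking the number in that way is a reading of the labels made after the results of both fits were known. Grouped by the record titles instead, the 4 against 4 libraries gave a log2 fold change of -0.046.

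The nearest libraries of the 2 groups were E2 replicate 2, with 362 reads in SLC26A2, and E2+DHT replicate 3, with 611. Their 95% counting intervals were 1.49 to 1.83 and 1.90 to 2.23 RPKM and did not meet. Such intervals are exact Poisson intervals and cover counting error only, since reads are not independent molecules. Over all libraries SLC26A2 had 269 to 664 reads. The gene lies on chromosome 5, 149340300 to 149373018 (hg19, plus strand), with 8606 bases of exon, and its level exceeded that of 26.7% of the tested genes.

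**Figure D1:**
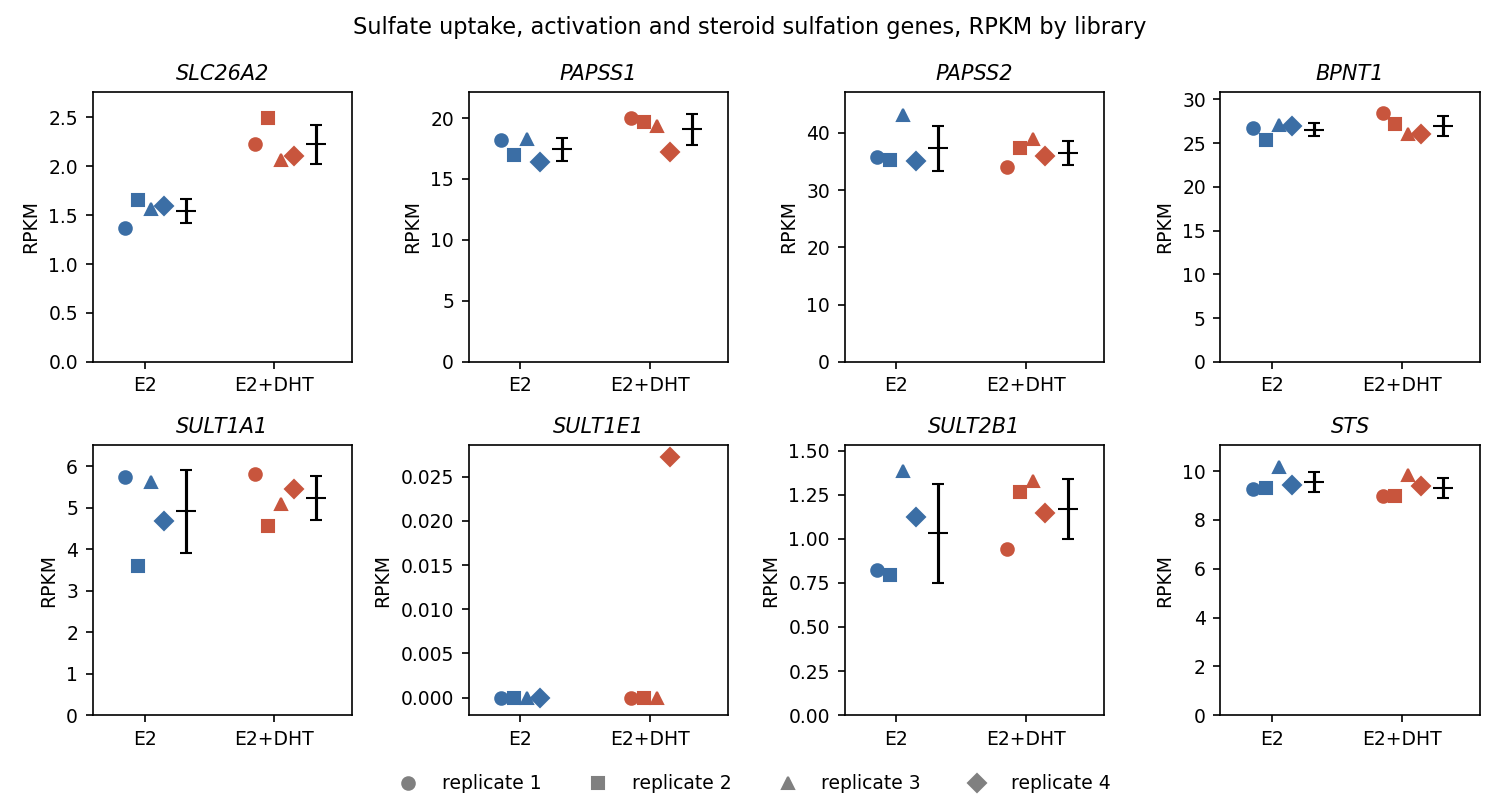
RPKM (y axis, linear) of each of the 8 genes in the 4 E2 (blue) and 4 E2+DHT (red) libraries, with symbols for the replicate number and black bars for the mean ± SD (omitted for SULT1E1). The SLC26A2 points separate by treatment, from 1.37 to 1.65 RPKM in E2 and from 2.06 to 2.50 RPKM in E2+DHT, while the points of the other 6 tested genes overlap.

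Of the 7 tested members 0 passed the threshold without the replicate block (limma, Benjamini-Hochberg over all tested genes), and SLC26A2 was the 1 member with an unadjusted p under 0.05. Over all tested genes 21 of 11375, or 0.185%, passed (20 higher and 1 lower with DHT, or 18 and 4 with the libraries scaled to the same RPKM sum), and 4.47% had an unadjusted p under 0.05. With the block 1 member, SLC26A2, passed, where 0.633% of all tested genes did. On recovered reads (limma with voom) 0 members passed either, with an adjusted p of 0.0593 for SLC26A2. The count of 21 became 19 without E2 replicate 1 and 7, 9 and 6 without E2 replicates 2, 3 and 4. It became 7, 6, 11 and 11 without E2+DHT replicates 1, 2, 3 and 4. SLC26A2 was also the 1 tested member of 7 whose groups did not overlap, a pattern found in 3.4% of all tested genes. Without any single library its log2 fold change stayed between 0.37 and 0.44, with limma adjusted p from 0.129 to 0.291.

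The neighbours of SLC26A2 in the table were taken by position. TIGD6, on the other strand, shares its last 338 bases with SLC26A2, and reads there cannot be assigned because the use of strand in counting is not given in the sources used here. TIGD6 had 1.84 ± 0.131 RPKM in E2 and 2.10 ± 0.134 RPKM in E2+DHT (SD, n = 4 per group; limma, adjusted p = 0.999). HMGXB3, which follows TIGD6 on the SLC26A2 strand, had 5.76 ± 0.660 and 6.97 ± 0.477 RPKM (SD, n = 4 per group). Its values did not overlap between treatments, from 4.93 to 6.37 in E2 and from 6.45 to 7.39 in E2+DHT, and its log2 fold change was 0.26 (limma adjusted p = 0.761). The remaining tested genes within 50 kb of any member had log2 fold changes between -0.046 (EPRS, beside BPNT1) and 0.18 (SULT1A2, beside SULT1A1).

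The 5 tested genes whose profile over the 8 libraries lay nearest to that of SLC26A2 were CNTNAP2, a neurexin-family adhesion protein, ADD3, an adducin of the membrane skeleton, EMP1, an epithelial membrane protein, CROT, a peroxisomal carnitine acyltransferase, and AKAP13, an anchor for protein kinase A. Likeness was the root mean square difference of the log2(RPKM + 0.5) values after each gene's mean was taken off, 0.0408 for CNTNAP2 and 0.0793 for AKAP13, against a median of 0.257 over the 11374 other tested genes. The other tested members were no nearer than 0.182 (PAPSS1), and SULT1A1 was furthest at 0.297. In SLC26A2, as in CNTNAP2, ADD3 and EMP1, E2 replicate 1 was the lowest library and E2+DHT replicate 2 the highest. The log2 fold changes of the 5 genes ran from 0.35 (ADD3) to 0.41 (AKAP13), and the groups overlapped in none of the 5, which follows from how they were chosen. AKAP13 alone passed (limma adjusted p = 0.0337), a call lost on leaving out any 1 of the 8 libraries (limma adjusted p from 0.0670 to 0.177) and kept in 7 of 22 alternatives in all.

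**Figure D2:**
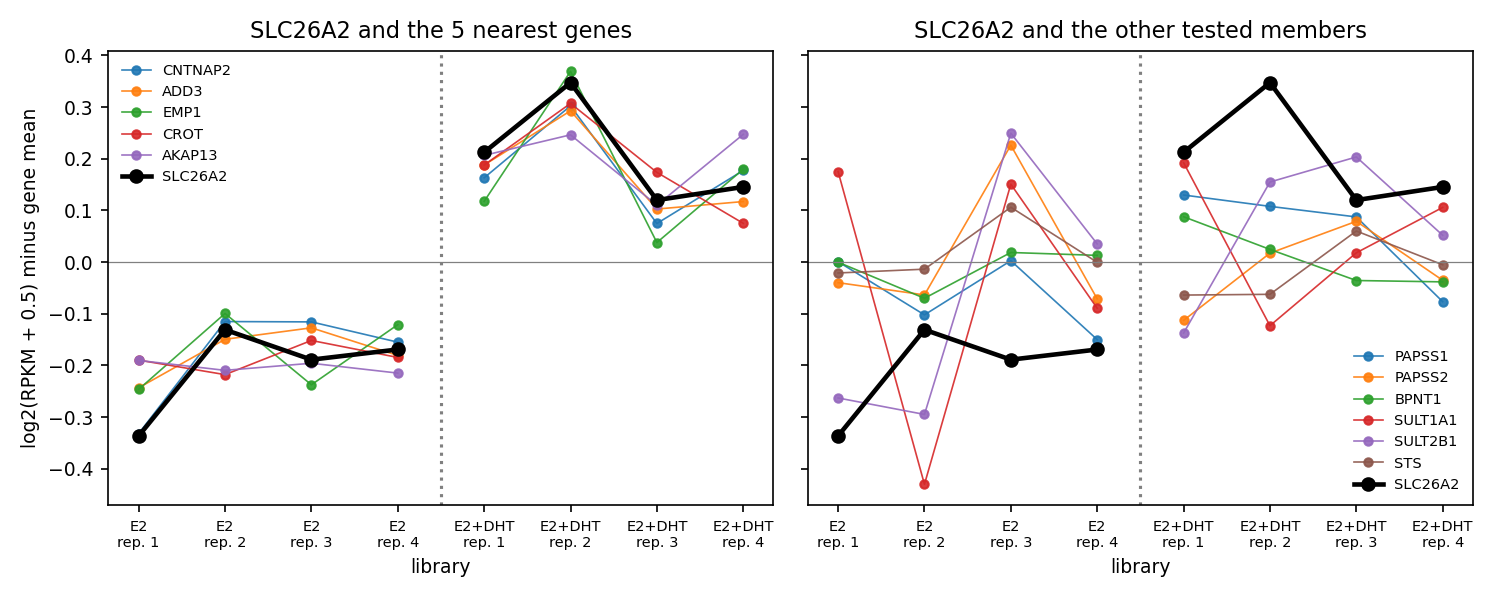
Log2(RPKM + 0.5) minus the gene's mean over the 8 libraries (y axis) for SLC26A2 in black with the 5 nearest genes (left) and with the other 6 tested members (right); lines only join the points of a gene within a treatment, and the dotted line parts the treatments. SLC26A2 runs from -0.34 in E2 replicate 1 to 0.35 in E2+DHT replicate 2, with the 5 genes close to it, while SULT1A1 has its lowest point, -0.43, in E2 replicate 2.

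The enzymes that activate sulfate were expressed well above SLC26A2 and showed no difference beyond their spread. PAPSS1, the form found in most tissues (hg19 chromosome 4, 108511433 to 108641608, minus strand), had 18.2, 16.9, 18.2 and 16.4 RPKM in E2 replicates 1 to 4. In E2+DHT replicates 1 to 4 it had 19.97, 19.7, 19.4 and 17.2 RPKM. The 3 highest E2+DHT libraries exceeded every E2 library, and E2+DHT replicate 4 lay inside the E2 range. The mean was 17.4 ± 0.944 RPKM in E2 and 19.1 ± 1.24 RPKM in E2+DHT (SD, n = 4 per group), and the log2 fold change was 0.12 (standard error 0.0713, limma adjusted p = 0.999). The 95% interval of that difference, -0.034 to 0.28, holds both no difference and a level 1.22 times as high on the same scale.

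PAPSS2 (chromosome 10, 89419370 to 89507462, plus strand), whose loss in humans impairs skeletal growth and the sulfation of the adrenal androgen precursor DHEA, was the most abundant member. It had 35.8, 35.2, 43.2 and 35.03 RPKM in E2 replicates 1 to 4 and 34.0, 37.3, 38.9 and 35.9 RPKM in E2+DHT replicates 1 to 4. The groups overlapped, and E2 replicate 3 stood above the other libraries. The means were 37.3 ± 3.92 and 36.5 ± 2.08 RPKM (SD, n = 4 per group) and the log2 fold change was -0.026 (standard error 0.0839, limma adjusted p = 0.999, 95% interval -0.21 to 0.16). PAPSS2 exceeded 94.8% of the tested genes in level.

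The balance of the 2 PAPS synthases is a description and was not tested. PAPSS2 made up 68.1% ± 1.68 of their summed RPKM in E2 and 65.7% ± 1.99 in E2+DHT (SD, n = 4 per group). By library the share ran from 66.3% to 70.3% in E2 and from 63.0% to 67.6% in E2+DHT. In each group replicate 1 had the lowest share, and the ranges overlapped.

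BPNT1 (chromosome 1, 220230824 to 220263804, minus strand), which clears PAP in the cytosol, had the smallest relative spread of the tested members in both groups, 2.86% and 4.25% of the mean. Its range was 25.4 to 27.0 RPKM in E2 and 26.0 to 28.4 RPKM in E2+DHT, with means of 26.5 ± 0.758 and 26.9 ± 1.14 RPKM (SD, n = 4 per group). The groups overlapped, and the log2 fold change was 0.019 (standard error 0.0613, limma adjusted p = 0.999, 95% interval -0.12 to 0.16). IMPAD1, which removes PAP in the Golgi, had 18.9 ± 1.23 and 18.5 ± 0.648 RPKM (SD, n = 4 per group; limma, adjusted p = 0.999).

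SULT1A1 (chromosome 16, 28616903 to 28634946, minus strand) led the 3 sulfotransferases among the members and carried most of their signal, 80.2% to 87.5% of their summed RPKM in E2 and 78.3% to 86.0% in E2+DHT. SULT1A1 acts on phenols and, at higher concentrations, on estrogens. It had 5.73, 3.597, 5.63 and 4.69 RPKM in E2 replicates 1 to 4. In E2+DHT replicates 1 to 4 it had 5.81, 4.57, 5.09 and 5.44 RPKM. The groups overlapped, and E2 replicate 2 was the lowest library.

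The SULT1A1 means were 4.91 ± 0.994 RPKM in E2 and 5.23 ± 0.527 RPKM in E2+DHT (SD, n = 4 per group), and they differed by 0.097 in log2 (standard error 0.132, limma adjusted p = 0.999, 95% interval -0.20 to 0.39). E2 replicate 2 also had the lowest share of its reads in exons, 78.3% against 80.0% to 84.8% in the other libraries. Without that library the log2 fold change was -0.031, and with the share as a covariate, a choice made after seeing the data, it was -0.15 (limma adjusted p = 0.779). By group the share was 78.3% to 83.7% in E2 and 83.2% to 84.8% in E2+DHT, so this covariate partly runs with treatment. SULT1A1 has near-identical copies, among which reads may be split. SULT1A2 had 2.07 ± 0.364 and 2.39 ± 0.316 RPKM (SD, n = 4 per group), and SULT1A3 and SULT1A4 were at most 0.0739 RPKM in any library, so the levels within this cluster are uncertain.

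SULT2B1 (chromosome 19, 49055332 to 49102682, plus strand), which sulfates cholesterol and related steroids, had the lowest level among the tested members and the widest relative spread in E2. Its range was 0.793 to 1.39 RPKM in E2 and 0.942 to 1.33 RPKM in E2+DHT. The groups overlapped, with means of 1.03 ± 0.280 and 1.17 ± 0.170 RPKM (SD, n = 4 per group) and a log2 difference of 0.14 (standard error 0.129, limma adjusted p = 0.999, 95% interval -0.15 to 0.42). Only 57 to 129 reads per library lay behind these values. The 95% counting interval of the lowest library, E2 replicate 2, was 0.600 to 1.03 RPKM. The interval of the difference reaches 0.42 and so includes one as large as that in SLC26A2. Without E2 replicate 2 the difference was 0.061, without E2 replicate 1 it was 0.072, and without E2 replicate 3 it was 0.24. Without E2+DHT replicate 1 it was 0.21, and in the 4 records whose labels match it was 0.41 (limma adjusted p = 1.00).

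SULT1E1, the estrogen sulfotransferase (chromosome 4, 70676498 to 70725870, minus strand), was listed at 0 in 7 of the 8 libraries and at 0.0272 RPKM in E2+DHT replicate 4 (exact two-sided permutation p = 1). With 1 value above 0, every split of the libraries gives the same absolute difference, so this p was fixed in advance. A count of 0 allows up to 3 reads in a library of 19599217 to 34616639 reads, so the gene was not detected at this depth in those 7. The value in the other library equals 1 read if the exons hold 1152 bases. GENCODE 29 gives 2091 bases for this gene, so the number of reads is uncertain. For SLC26A2, PAPSS1, SULT2B1 and STS the length recovered from the values equals that in GENCODE 29 exactly. It differs for PAPSS2 (4116 against 4083 bases in GENCODE 29), BPNT1 (3115 against 3113) and SULT1A1 (8523 against 8909).

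STS (chromosome X, 7137497 to 7272851, plus strand), which removes sulfate from steroids, had 9.27, 9.32, 10.2 and 9.41 RPKM in E2 replicates 1 to 4 and 8.99, 9.00, 9.84 and 9.38 RPKM in E2+DHT replicates 1 to 4. The groups overlapped, and in each of them replicate 3 was the highest. The means were 9.55 ± 0.423 and 9.30 ± 0.403 RPKM (SD, n = 4 per group), and the log2 difference was -0.036 (standard error 0.0628, limma adjusted p = 0.999). The 95% interval of the difference, -0.18 to 0.10, corresponds to between 0.886 and 1.07 times the E2 level on that scale. Without single libraries the difference lay between -0.0061 (without E2 replicate 3) and -0.062 (without E2+DHT replicate 3). STS stood above SULT1A1, the highest sulfotransferase among the members, in all 8 libraries. The ratio of their RPKM was 1.62 to 2.59 in E2 and 1.55 to 1.97 in E2+DHT. That ratio depends on the exon lengths used for scaling, 6521 bases for STS and 8523 for SULT1A1. Transcript levels do not measure enzyme activity.

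**Figure D3:**
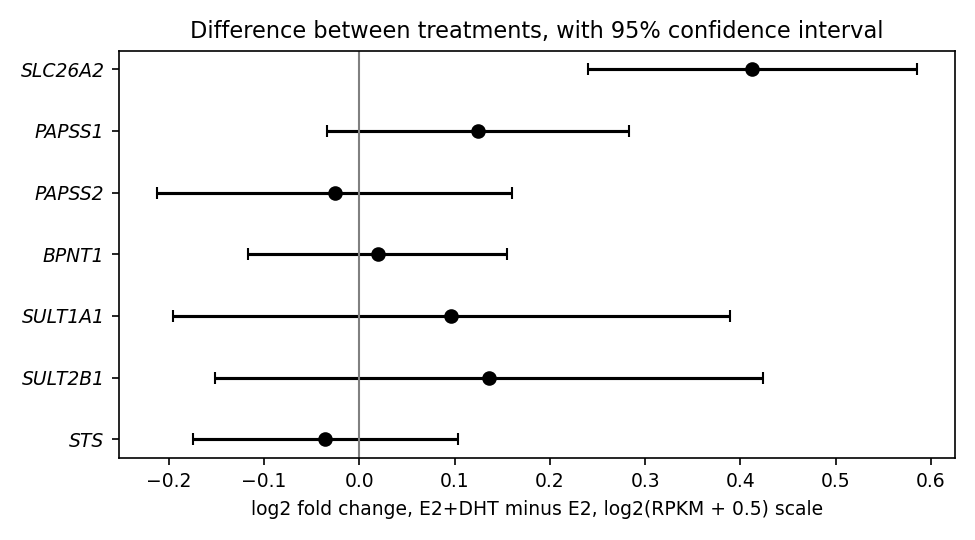
Log2 fold change of E2+DHT against E2 (x axis, log2(RPKM + 0.5) scale) for the 7 tested members, with bars for the 95% confidence interval of the limma fit on 4 libraries per group. The interval of SLC26A2 runs from 0.24 to 0.59, and those of the other 6 genes include 0.

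In length-scaled level the members kept 1 order in all 8 libraries: PAPSS2, BPNT1, PAPSS1, STS, SULT1A1, SLC26A2, SULT2B1 and SULT1E1. The ranges of neighbouring genes did not overlap, except for SLC26A2 and SULT2B1, where the lowest SLC26A2 value (1.37 RPKM, E2 replicate 1) lay just under the highest SULT2B1 value (1.39 RPKM, E2 replicate 3). In E2 the SLC26A2 level was 1.13 to 2.08 times that of SULT2B1, and in E2+DHT 1.55 to 2.37 times. The enzymes that make PAPS or break down PAP thus had the 3 highest RPKM levels among the members. STS, the sulfotransferases among the members and SLC26A2 stood below them. This order between genes depends on the exon lengths used for scaling.

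Other genes of the pathway were read from 7 lists with 104 genes in the table, 44 of them tested. None of the 44 passed the threshold in limma, on RPKM or on recovered reads. Over all tested genes 0.185% passed on RPKM, and at so low a share 0 of 44 says nothing particular about these lists. Of the 44, 31 had a positive log2 fold change, against 6402 of all 11375 tested genes. The median was 0.028, against 0.014 over all tested genes. SQRDL alone of the 44 had an unadjusted limma p under 0.05, where 4.47% of all tested genes did. ARSG alone had groups that did not overlap, a pattern found in 3.4% of all tested genes. The log2 fold changes furthest from 0 in these lists were those of ETHE1 (0.28) and SQRDL, which oxidise sulfide in mitochondria on its way to sulfate. SQRDL had 8.22 ± 1.55 RPKM in E2 and 9.84 ± 0.565 RPKM in E2+DHT (SD, n = 4 per group, log2 fold change 0.26, limma adjusted p = 0.999). Its value was 0.17 without E2 replicate 2, and -0.023 with the exon share of reads as a covariate.

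Of 12 sulfate and anion transporters beside SLC26A2, only SLC26A6 and SLC26A11 were tested, and 0 passed. Over the 8 libraries they averaged 4.59 and 3.22 RPKM, both above SLC26A2 at 1.88 RPKM. SLC26A6, a chloride and bicarbonate exchanger, had 4.27 ± 0.956 RPKM in E2 and 4.91 ± 0.264 RPKM in E2+DHT (SD, n = 4 per group; limma, adjusted p = 0.999). SLC26A1, a sulfate transporter of liver and kidney, and SLC26A3, an anion exchanger of the gut, were below the level for testing, at 0.0263 and 0.162 RPKM on average over the 8 libraries. SLC26A3 had 0.0578 to 0.139 RPKM in E2 and 0.139 to 0.272 RPKM in E2+DHT, with means of 0.103 ± 0.0394 and 0.2203 ± 0.0593 RPKM (SD, n = 4 per group). The groups met only at their edges, where E2 replicate 2 was just above E2+DHT replicate 4, and the difference was not tested. Among carriers of PAPS into the Golgi, SLC35B2 had 15.0 ± 2.57 and 16.6 ± 1.12 RPKM (SD, n = 4 per group; limma, adjusted p = 0.999). SLC35B3, IMPAD1 and SLC35B2 were the 3 tested genes of their list, with a median log2 fold change of -0.025 and 0 past the threshold.

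SULT1A2 was the single tested gene among 10 other cytosolic sulfotransferases. Among those not tested, SULT4A1, a brain form, had the highest mean at 0.477 RPKM. Of 17 other sulfatases and their activators 12 were tested, 0 passed and the median log2 fold change was 0.017. ARSG, a lysosomal sulfatase, ran from 0.806 to 0.847 RPKM in E2 and from 0.627 to 0.795 RPKM in E2+DHT, without overlap (log2 fold change -0.11, limma adjusted p = 0.999).

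Sulfotransferases of the Golgi, which modify proteoglycans and proteins with the same donor, were 37 genes, 13 of them tested and 0 past the threshold, with a median log2 fold change of 0.020. HS6ST1, which works on heparan sulfate, had 10.3 ± 1.86 and 10.2 ± 0.932 RPKM (SD, n = 4 per group). CHST15, which works on chondroitin sulfate, had 3.58 ± 0.388 RPKM in E2 and 3.09 ± 0.353 RPKM in E2+DHT (SD, n = 4 per group, log2 fold change -0.18, limma adjusted p = 0.999). Among 16 carriers listed for steroid sulfates, not each of them known to move these, 5 were tested and 0 passed, with a median of 0.021. ABCC1, an exporter of conjugates, was the highest of these at 4.19 ± 0.329 and 4.51 ± 0.454 RPKM (SD, n = 4 per group). GOT1, which acts on the product of cysteine oxidation, led the 8 tested genes of sulfate formation in level at 9.69 ± 0.771 and 10.2 ± 0.929 RPKM (SD, n = 4 per group), and that list had a median of 0.090.

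**Figure D4:**
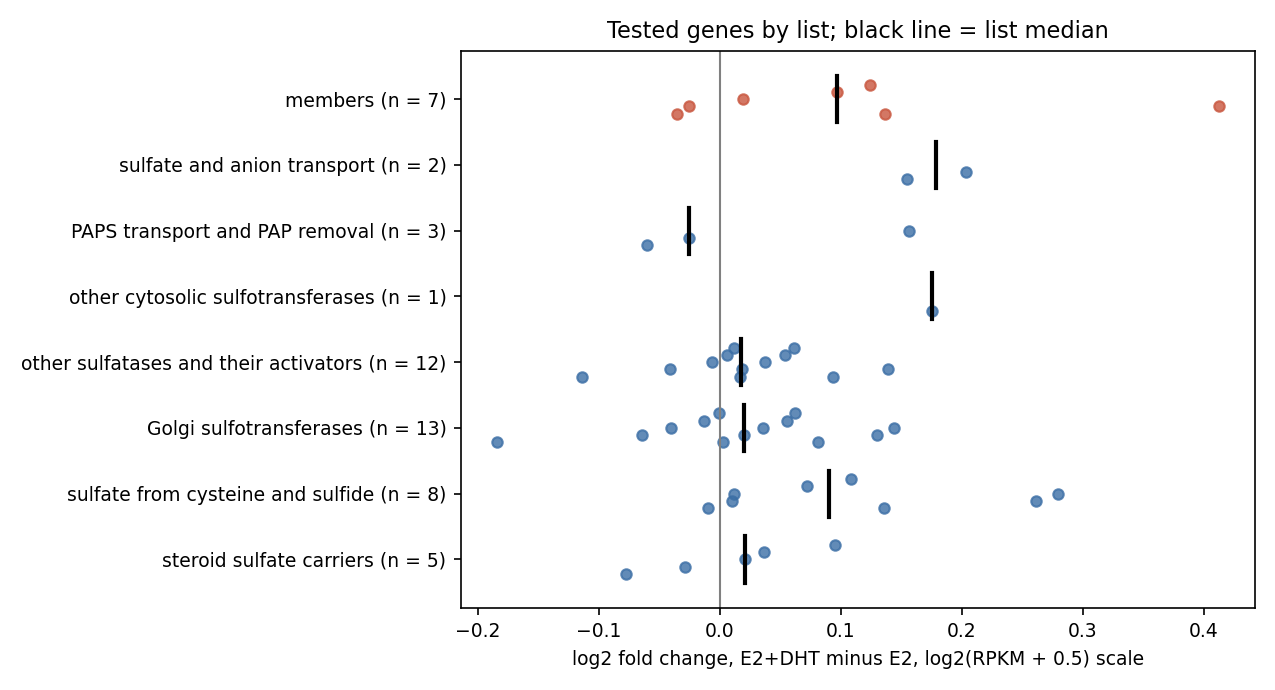
Log2 fold change of E2+DHT against E2 (x axis, log2(RPKM + 0.5) scale) of each tested gene, by list; red points are the 7 members, blue points the 44 genes of the 7 lists, vertical offsets only part the points, and black lines are list medians. SLC26A2, at 0.41, is the point furthest to the right, and the 44 other genes lie between -0.18 and 0.28.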

How the data were processed

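The authors deposited RPKM values for 57773 genes in 8 libraries, 4 per treatment, and per the submitters' processing notes the build was hg19. No aligner, counter or annotation is named in the sources used here. Per the labels' protocols a stranded total RNA kit and paired-end reads were used. Whole reads were recovered by finding the exon length and library denominators that turn the RPKM values into whole numbers (27592 of 27594 genes above 0, tolerance 0.0001 reads). The shortest such length was taken, which can be too short for genes with few reads. Values were tested as log2(RPKM + 0.5) with limma 3.58.1 in R 4.3.3 (two-sided moderated test whose prior follows intensity, Benjamini-Hochberg over the 11375 genes with a mean RPKM of at least 0.5, threshold 0.05). The test was checked on simulated data. Plots were drawn with matplotlib 3.10.9, and tables were made with SciPy 1.17.1, NumPy 2.4.6 and pandas 2.3.3 under Python 3.11.15. Promoter sequences are from RefSeq, GRCh38.p14, and matched 5 of the 8 members. PAPSS2, BPNT1 and SULT1A1 had no entry.

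The labels give several passages within each treatment but not whether libraries of 1 passage were separate cultures, so p-values cover the spread among these libraries, part of which may be technical. The members and lists were chosen with earlier results of these data known. Named from each list were every gene past the threshold, the tested gene with the highest level and the one with the smallest p. ETHE1, SLC26A11, SLC35B3 and genes below the level for testing were added after their values were seen. IDS was not analysed here, and 1 gene that the rule names is not reported here. The lists' newer names BPNT2 and SQOR are IMPAD1 and SQRDL in the table. The alternatives tried were other pseudocounts, filters and scalings, each library left out, other groupings, a replicate block and recovered reads.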

Additional observations from a re-analysis of the deposited data

Results flagged for a closer look

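Values of 28 genes were examined in 55 groups of 4 libraries for 1 library far from the other 3. There were 6 such groups, and chance alone gives about 1 in 20. E2 replicate 3 stood high for 3 genes: PAPSS2 with 43.2 RPKM (35.03 to 35.8 in the other E2 libraries), STS with 10.2 RPKM (9.27 to 9.41) and TIGD6 with 2.03 RPKM (1.74 to 1.79). E2 replicate 1 stood low for FKBP5 with 0.652 RPKM, where the other E2 libraries had 0.813 to 0.841. E2+DHT replicate 1 stood high for SLC35B2 with 18.3 RPKM, where the other E2+DHT libraries had 15.9 to 16.3. SULT1E1 was at 0.0272 RPKM in E2+DHT replicate 4 and listed at 0 in the other 3. SLC26A2 was not among the 6.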

How the results depend on the processing

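SLC26A2 kept its direction in 20 of 21 alternatives. Its log2 fold change passed the threshold with a replicate block (0.41, limma adjusted p = 0.0385) and with a replicate block and median centring (0.39, limma adjusted p = 0.0252). Without the block, scaling moved it further from the threshold. It was 0.35 with the same RPKM sum (limma adjusted p = 0.366), and 0.39 with median centring and with quantile normalization (limma adjusted p = 0.215 in both). The limma adjusted p was 0.235 with no filter and 0.294 with the exon share as a covariate. Whether replicate numbers pair the libraries is unsettled: deviations of same-numbered libraries correlated at 0.703, 0.455, 0.121 and 0.0833. E2 replicate 4 correlated best with E2+DHT replicate 2 (0.329) and E2+DHT replicate 3 with E2 replicate 4 (0.216). The other libraries correlated best with their own number, but E2 replicate 3 almost as well with E2+DHT replicate 1 (0.12 against 0.121). For E2+DHT replicate 4 the best value was only 0.0833. The block changed no other member's call. Of 21 genes past the threshold, the count was 5 with no filter, 33 with median centring, 72 with the block, 131 with the block and centring, 6 to 19 without single libraries and 5 with the exon share as a covariate, chosen after seeing the data. Titles as groups gave 2 genes, and limma gave 0 in the 4 records whose labels match, where 283 genes had an unadjusted p under 0.05. No pathway list gene passed in any alternative.

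Grouped by titles, log2 fold changes turned sign in SLC26A2 (-0.046), PAPSS1 (-0.068), PAPSS2 (0.099), BPNT1 (-0.021), STS (0.080), SLC26A6 (-0.051), IMPAD1 (0.083), SLC35B2 (-0.027), ARSG (0.0079), CHST15 (0.087), CNTNAP2 (-0.0093), ADD3 (-0.044), EMP1 (-0.070), CROT (-0.044), AKAP13 (-0.027), FKBP5 (-0.029), C1orf116 (-0.42) and UGDH (-0.013). In the 4 matching records they did so in PAPSS2 (0.073), BPNT1 (-0.0018), STS (0.045) and IMPAD1 (0.057). With the exon share they did so in BPNT1 (-0.011), SULT1A1 (-0.15), SULT2B1 (-0.027), SLC26A6 (-0.067), SLC35B2 (-0.072), HS6ST1 (-0.23), GOT1 (-0.035) and SQRDL (-0.023). BPNT1 was -0.00027 with median centring, with or without the block, -0.057 with the same RPKM sum and -0.023 with quantile normalization. HS6ST1 was -0.017, -0.071 and -0.017 under the same settings, and GOT1 was -0.0027 with the same RPKM sum. Without single libraries the range crossed 0 for PAPSS2 (-0.056 to 0.045), BPNT1 (-0.0068 to 0.035), SULT1A1 (-0.031 to 0.17), IMPAD1 (-0.056 to 0.0057) and HS6ST1 (-0.10 to 0.089). The cause was not tested. SLC26A2 and SULT2B1 were not tested at a minimum of 2 RPKM.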
